A study of Homo sapiens with 8 samples.

Results

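DNA methylation was followed at 10 imprinted control regions that are methylated on the maternal allele, in human embryonic stem cells from which DNMT1 was withdrawn over 7 days. The regions were fixed as hg19 intervals, chosen by their identity and not by values of these libraries, and every CpG listed inside an interval was taken. They are the control regions of KCNQ1OT1 (chr11:2719948-2722259), SNRPN (chr15:25200004-25201976), GRB10 (chr7:50848726-50851312), PEG10 (chr7:94285537-94287960), MEST (chr7:130130122-130134388), PLAGL1 (chr6:144328078-144329884), PEG3 (chr19:57348493-57353271), GNAS A/B (chr20:57463265-57465201), L3MBTL1 (chr20:42142365-42144040) and NAP1L5 (chr4:89618184-89619237). Of these 10, 9 held CpGs, 545 in all, of which 371 were listed in every library. NAP1L5 held 0 listed CpGs and is not analysed here. For tests across the genome, 8 regions had at least 3 shared CpGs with at least 10 reads in every library and were fitted among 202665 features, the others being 1-kb tiles of the autosomes. PEG10 missed this minimum, with 3 shared CpGs and 8 reads on day 4. The intervals were not set against exon and intron annotation of hg19, which was not used here.

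The cells were HUES64, an established human embryonic stem cell line, with the genotype DNMT1 knockout in all libraries. The time course is described as withdrawal of DNMT1*; from what is known of the study, DNMT1* is a rescue copy of the enzyme that keeps the knockout cells alive and that can be shut off, and the labels do not name the agent. There was 1 library for each day, d0 to d7, so day 0 is the only starting value, no day has a replicate, and a trend over days is the only comparison that can be tested. Whether the cells were 1 clone is not given in the labels, and DNMT1 itself is not measured by this assay. Methylation was measured by reduced representation bisulfite sequencing (RRBS), which reads CpG-rich restriction fragments and scores each read at a CpG as methylated or not. The libraries listed 2816114 to 3185724 CpGs. Days 0, 1, 2, 6 and 7 were deep (the median CpG had between 21 and 44 reads) and days 3, 4 and 5 were shallow (4 reads), so values of those 3 days are less precise throughout.

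At an imprinted control region, one parental allele is methylated in the germ line and the other is not, and this difference is copied through cell division in the embryo while most other germline methylation is erased. DNMT1 is the enzyme that copies methylation onto the new strand after replication. Zinc finger proteins such as ZFP57 bind the methylated allele and recruit factors that hold the mark during the erasure in the early embryo. Maternally methylated regions are mostly promoters, and the unmethylated paternal copy is the active one. RRBS reads without a parental marker cannot tell which allele a read came from, so a level near the middle of the scale is what the label predicts and the parent of origin was not measured here.

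The promoter sequences of 5 members are shown because the measured CpGs lie inside them and because they hold, or do not hold, the core letters TGCCGC of the ZFP57 motif. They are RefSeq promoters in GRCh38.p14, running from 250 bases before to 50 bases after a gene start, and are printed 5′ to 3′ on the strand of the gene. No coordinate was converted between builds. A promoter was placed on the hg19 data where every CpG listed in the window fell on a CG of the sequence, which happened at 1 position for each. Capitals mark the CpGs that the libraries listed inside the interval. The windows are chr15:24954737-24955036 on the plus strand for SNRPN, chr7:50782847-50783146 on the minus strand for GRB10, chr7:130491079-130491378 on the plus strand for MEST, chr6:144008210-144008509 on the minus strand for PLAGL1 and chr20:58888930-58889229 on the plus strand for GNAS.
SNRPN: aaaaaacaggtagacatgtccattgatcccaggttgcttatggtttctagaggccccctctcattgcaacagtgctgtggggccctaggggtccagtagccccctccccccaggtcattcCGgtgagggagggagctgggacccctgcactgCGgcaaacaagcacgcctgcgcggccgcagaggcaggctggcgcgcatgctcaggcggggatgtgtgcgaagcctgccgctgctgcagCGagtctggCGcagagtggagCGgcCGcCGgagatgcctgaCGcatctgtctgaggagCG
GRB10: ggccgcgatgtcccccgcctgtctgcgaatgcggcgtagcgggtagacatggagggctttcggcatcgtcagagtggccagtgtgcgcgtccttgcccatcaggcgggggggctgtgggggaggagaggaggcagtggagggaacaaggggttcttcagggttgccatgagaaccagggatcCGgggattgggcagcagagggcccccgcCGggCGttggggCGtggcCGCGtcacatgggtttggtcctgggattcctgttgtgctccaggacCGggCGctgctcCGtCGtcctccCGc
MEST: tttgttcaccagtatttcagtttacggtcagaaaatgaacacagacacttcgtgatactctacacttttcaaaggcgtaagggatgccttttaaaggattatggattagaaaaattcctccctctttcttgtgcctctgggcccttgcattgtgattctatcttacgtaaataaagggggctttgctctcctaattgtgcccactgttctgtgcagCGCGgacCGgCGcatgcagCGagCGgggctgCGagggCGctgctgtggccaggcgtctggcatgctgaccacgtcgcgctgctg
PLAGL1: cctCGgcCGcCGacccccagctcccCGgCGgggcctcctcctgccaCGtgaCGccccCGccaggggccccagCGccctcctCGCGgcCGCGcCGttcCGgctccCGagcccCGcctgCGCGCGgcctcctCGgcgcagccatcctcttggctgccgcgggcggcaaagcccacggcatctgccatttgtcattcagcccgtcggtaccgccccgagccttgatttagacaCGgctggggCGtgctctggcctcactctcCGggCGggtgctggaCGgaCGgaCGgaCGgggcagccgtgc
GNAS: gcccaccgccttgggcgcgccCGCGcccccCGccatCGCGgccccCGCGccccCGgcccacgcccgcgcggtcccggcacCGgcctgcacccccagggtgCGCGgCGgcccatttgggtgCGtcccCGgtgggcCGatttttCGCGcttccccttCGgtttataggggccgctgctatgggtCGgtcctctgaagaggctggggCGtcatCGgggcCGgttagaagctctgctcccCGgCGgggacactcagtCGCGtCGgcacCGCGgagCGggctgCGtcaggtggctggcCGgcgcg

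The listed CpGs of these windows numbered 9 in SNRPN, 11 in GRB10, 8 in MEST, 29 in PLAGL1 and 32 in GNAS. The letters TGCCGC, searched on both strands, occurred 2 times in the SNRPN window and 2 times in the PLAGL1 window, and 0 times in the windows of GRB10, MEST and GNAS. Of 35116 RefSeq promoters of the same length, 16.7% held them. A match is a description of the letters, and no match says only that they are not in that window. Over the shared CpGs of the windows, methylation on day 0 was 33.0% in SNRPN (135 of 409 reads), 32.9% in GRB10 (120 of 365), 50.6% in MEST (159 of 314) and 37.3% in PLAGL1 (383 of 1027). On day 7 the same CpGs stood at 5.48%, 2.96%, 5.22% and 6.07%. The GNAS window held 1 methylated read of 769 on day 0 and 9 of 523 on day 7. For KCNQ1OT1, PEG10, PEG3, L3MBTL1 and NAP1L5 the region is named only.

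On day 0, 6 of the 9 measured regions had intermediate methylation of 35 to 65%, as pooled reads over the CpGs shared by all libraries. SNRPN lay just under that range at 33.9% and PLAGL1 just inside it at 39.6%. PEG3 was above it at 82.5%, and GNAS A/B was nearly unmethylated at 1.71%, so for these last members the data go against a level with 1 methylated allele of the pair. By day 7 the 8 methylated regions stood between 4.98% and 13.8%, with a median of 6.99% against 44.5% on day 0. Brackets below give Wilson 95% intervals of the reads. They cover counting error only, since neighbouring CpGs are read on the same molecules and are not independent.

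**Figure D1:**
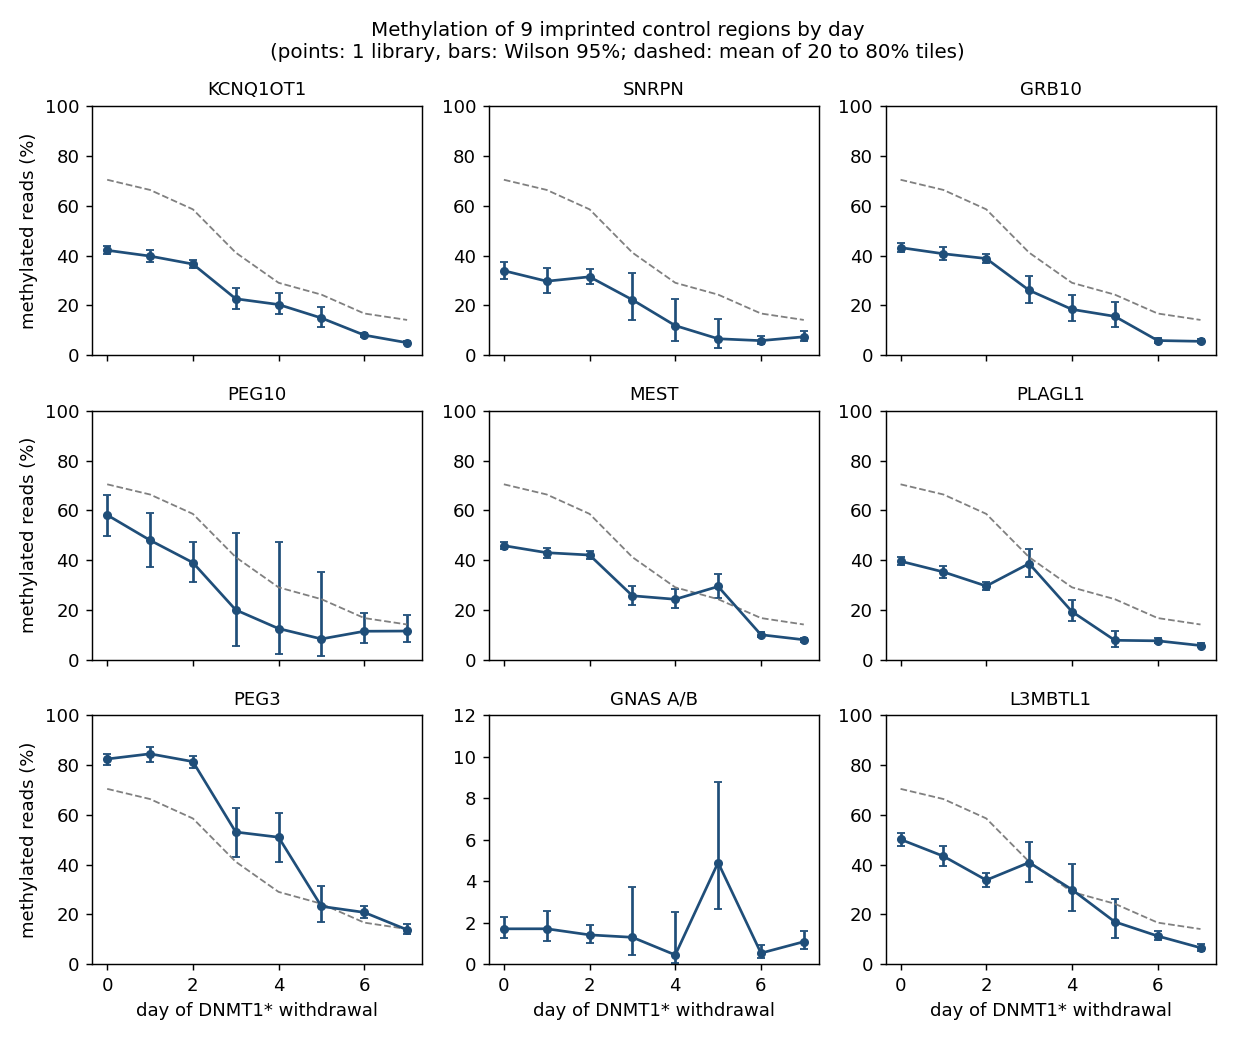
Methylated reads (%) on each day of DNMT1* withdrawal in the 9 regions with CpGs; each point is 1 library, bars are Wilson 95% intervals and the dashed line is the mean of tiles at 20 to 80% methylation. The GNAS A/B panel has its own axis, to 12%. The 6 regions at 35 to 65% on day 0, and SNRPN, end between 4.98 and 11.5%, PEG3 ends at 13.8%, and the shallow days 3 to 5 carry the widest bars.

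KCNQ1OT1 is a long noncoding RNA transcribed against KCNQ1 from the unmethylated paternal copy, where it silences neighbouring genes. Its region (69 shared CpGs) stood at 42.1% (40.5 to 43.8) on day 0, at 39.8%, 36.6%, 22.6%, 20.3%, 14.9% and 8.04% on days 1 to 6, and at 4.98% (4.29 to 5.78) on day 7. Each pooled level was below that of the day before, though days 3 and 4 had overlapping intervals. Its day 7 level was the lowest among all 8 methylated regions, with an interval that overlapped those of GRB10, PLAGL1, L3MBTL1 and SNRPN. Over CpGs with at least 10 reads in every deep library, PLAGL1 was lower on day 7, at 5.26% against 5.32%. GRB10 encodes an adaptor protein that dampens signalling from the insulin receptor. Its region (48 shared CpGs) gave 43.2% (41.3 to 45.1) on day 0, 40.7%, 38.8%, 26.1%, 18.4%, 15.6% and 5.87% on days 1 to 6, and 5.54% (4.72 to 6.50) on day 7. The fall from day 5 to day 6 left 37.7% of the level before it, and the next day left 94.5%, with overlapping intervals on days 6 and 7.

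MEST encodes a protein of the hydrolase fold family and is expressed from the paternal copy. Over 80 shared CpGs, its region gave 45.8% (44.4 to 47.3) on day 0, 43.0%, 42.1%, 25.7%, 24.3% and 29.4% on days 1 to 5, 10.02% on day 6 and 8.01% (7.22 to 8.87) on day 7. The rise from day 4 to day 5 lay within overlapping intervals, 20.6 to 28.3 against 24.7 to 34.6, and both libraries were shallow. PLAGL1, a zinc finger transcription factor that restrains cell growth, was measured at 64 shared CpGs. It stood at 39.6% (37.9 to 41.3) at the start and at 35.3% and 29.6% on days 1 and 2. It was at 38.6% (33.2 to 44.3) on day 3, at 19.3%, 7.79% and 7.58% on days 4 to 6, and at 5.69% (4.91 to 6.60) on day 7. The day 3 value lay above that of day 2 with intervals that did not overlap, and rested on 290 reads against 3227. The part of the shallow library in this difference was not tested.

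L3MBTL1 encodes a chromatin protein that binds methylated histones. At 18 shared CpGs its region gave 50.2% (47.4 to 52.9) on day 0, 43.4% and 33.8% (31.2 to 36.5) on days 1 and 2, 40.9% (33.0 to 49.2), 30.0% and 17.0% on days 3 to 5, and 11.3% and 6.62% (5.33 to 8.19) on days 6 and 7. It had lost more of its starting level by day 2 than any other region with over 3 shared CpGs. SNRPN, at the imprinting centre of the Prader-Willi and Angelman region, encodes a protein of the splicing machinery. Its 14 shared CpGs gave 33.9% (30.7 to 37.3) on day 0, 29.7%, 31.5%, 22.2%, 11.9% and 6.58% on days 1 to 5, 5.82% (4.39 to 7.67) on day 6 and 7.37% (5.65 to 9.56) on day 7. Days 6 and 7 had overlapping intervals, so no further loss was seen between them. Reads in the shallow libraries numbered only 59 to 76 for SNRPN.

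PEG10 is a paternally expressed gene derived from a retrotransposon, with a role in the placenta. Its 3 shared CpGs gave 58.1% (49.5 to 66.3) on day 0, 48.0% and 39.0% on days 1 and 2, and 11.4% and 11.5% (7.21 to 17.9) on days 6 and 7. The shallow libraries held 10, 8 and 12 reads, with 2, 1 and 1 methylated, and add little. Over the 7 CpGs that reached 10 reads in every deep library, the level was 53.1% (47.0 to 59.1) on day 0, 47.1%, 39.6% and 11.4% on days 1, 2 and 6, and 8.28% (5.67 to 11.9) on day 7. The intervals of days 0 and 2 did not overlap in this larger set of CpGs, 47.0 to 59.1 against 34.3 to 45.2.

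PEG3, a paternally expressed zinc finger gene, stood apart from the intermediate members. Its 27 shared CpGs gave 82.5% (80.1 to 84.6) on day 0, 84.5% and 81.4% (78.9 to 83.7) on days 1 and 2, 53.1%, 51.0% and 23.3% on days 3 to 5, and 20.8% and 13.8% (11.96 to 16.0) on days 6 and 7. The first 3 days had overlapping intervals, and the level was lower on every later day. At the start, 14 of 23 single CpGs of PEG3 were at 80% or more and 9 were between 20 and 80%, and none was at 20% or less.

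The GNAS A/B region covers the promoter of an alternative first exon of GNAS, the gene of the stimulatory G protein alpha subunit. Over 48 shared CpGs it gave 1.71% (1.27 to 2.29) on day 0, 1.71%, 1.42%, 1.30% and 0.448% on days 1 to 4, 4.90% (2.68 to 8.79) on day 5, and 0.537% and 1.09% (0.731 to 1.61) on days 6 and 7. The day 5 value is 10 methylated reads of 204, with no more than 2 at 1 CpG. On day 0, 40 of the 43 methylated reads came from 2 lone CpGs, singled out here after their values were seen. They are chr20:57463265-57463266, the first CpG of the interval, with 21 of 35 reads methylated, and chr20:57464530-57464531, with 19 of 42 (45.2%). These CpGs together went from 51.9% (41.0 to 62.7) on day 0 and 48.1% on day 2 to 10.6% and 5.08% (1.74 to 13.9) on the last 2 days. The other 46 CpGs held 3 methylated reads of 2441 on day 0 (0.123%), 17 of 1331 (1.28%) and 3 of 2817 on days 1 and 2, and 5 of 2170 and 21 of 2150 (0.977%, 0.640 to 1.49) on days 6 and 7.

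Of the 8 regions tested, 7 fell over the 8 libraries, by a quasi-binomial regression on day with limma-moderated dispersion and a Benjamini-Hochberg adjusted p under 0.05 over all features. This count has to be read against a background in which 90.2% of all features fell and 0.0405% rose. Among features at 20 to 80% methylation on days 0 and 1, 90219 of 90225 fell (100%). A falling member was therefore no exception. The slope was -0.367 ± 0.0344 (SE) log odds per day for KCNQ1OT1 (limma-moderated adjusted p = 1.89e-13), -0.387 ± 0.0352 for GRB10 (7.99e-14), -0.357 ± 0.0313 for L3MBTL1 (2.91e-14) and -0.344 ± 0.0332 for PLAGL1 (4.91e-13). It was -0.334 ± 0.0373 for MEST (limma-moderated adjusted p = 2.76e-11), -0.312 ± 0.0363 for SNRPN (8.43e-11) and -0.552 ± 0.0363 for PEG3 (6.34e-18). GNAS A/B did not pass, at -0.0955 ± 0.0536 (limma-moderated adjusted p = 0.0899), and of features at 20% or less at the start 32.4% fell. With only the shallow day 5 library left out, GNAS A/B was called falling at -0.116 (limma-moderated adjusted p = 0.0330). It was not called with the 5 deep libraries, which also lack day 5, at -0.107 (limma-moderated adjusted p = 0.0509). With CpGs of at least 5 reads in every library its slope was above 0, at 0.255 (limma-moderated adjusted p = 0.143). The median fitted change from day 0 to day 7 was -41.4 percentage points in the 8 members and -65.5 in all features. In features at 20 to 80% it was -62.4, and the tiles at 20 to 80% started at a mean of 70.5% on day 0. The 8 methylated regions, which include PEG10 and not GNAS A/B and so differ from the 8 tested, started at a median of 44.5%.

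Because most of the genome lost methylation, each region was also read as a share of its own day 0 level, beside 90219 tiles at 20 to 80% on days 0 and 1. On day 7 the 8 methylated regions kept 11.8 to 21.7%, with a median of 15.6%, and the intermediate tiles kept a median of 19.8%, with the 10th to 90th percentile at 12.9 to 27.1%. KCNQ1OT1 kept 11.8%, GRB10 12.8%, L3MBTL1 13.2%, PLAGL1 14.4%, PEG3 16.8%, MEST 17.5%, PEG10 19.8% and SNRPN 21.7%. KCNQ1OT1 and GRB10 lay just below that span of the tiles, and 9.92% of the tiles kept less than GRB10. Tiles with at least 20 listed CpGs, called CpG-dense here, kept a median of 16.6%, and 15.1% and 20.8% of these kept less than KCNQ1OT1 and GRB10. PEG10, SNRPN, PEG3 and L3MBTL1 had 2.89 to 17.9 listed CpGs per kb, fewer than such tiles.

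**Figure D2:**
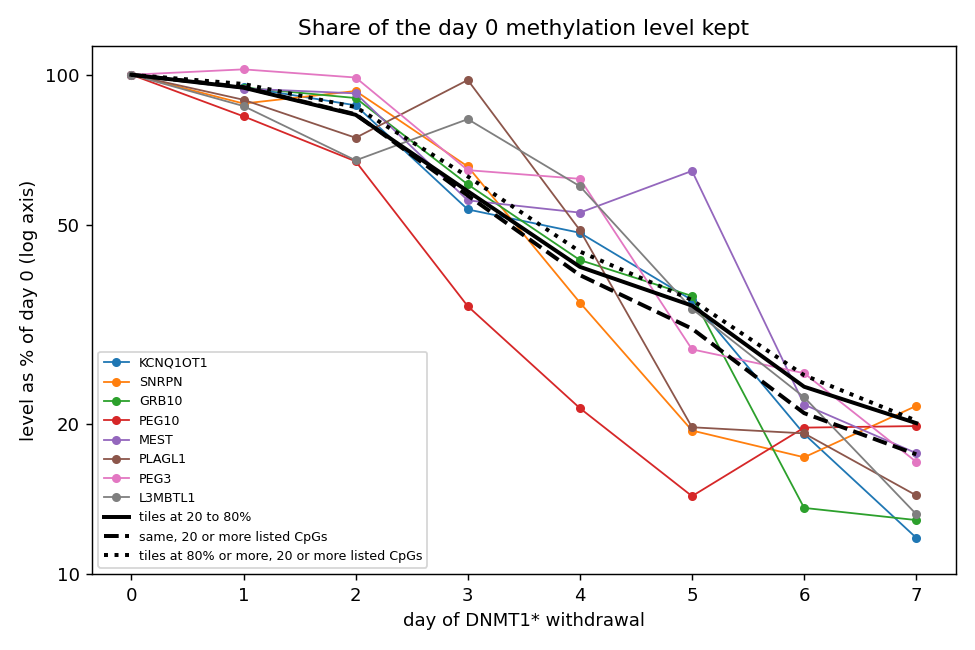
Level on each day as a share of the day 0 level (%, log axis) for the 8 methylated regions, 1 library a day, with the means of 3 classes of 1-kb tiles as black lines. The regions spread from 67.1 to 98.7% on day 2 and end at 11.8 to 21.7% on day 7, and the tile classes end at 17.4 to 20.3%.

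The order of the regions changed over the days. On day 2, PEG3 had kept 98.7% of its day 0 level, SNRPN 92.8%, MEST 91.8%, GRB10 89.8% and KCNQ1OT1 86.9%. PLAGL1 had kept 74.8%, L3MBTL1 67.4% and PEG10 67.1%. The intermediate tiles kept a median of 83.3% on that day, with the 10th to 90th percentile at 73.2 to 92.3%. L3MBTL1 was below all but 3.54% of these tiles and PEG3 above all but a few, with 97.8% of tiles keeping less. On day 6, PEG3 kept 25.3%, L3MBTL1 22.6%, MEST 21.9%, PEG10 19.7%, PLAGL1 19.1%, KCNQ1OT1 19.1%, SNRPN 17.1% and GRB10 13.6%. From day 6 to day 7 the mean of the intermediate tiles kept 84.6% of its level. L3MBTL1 kept 58.3%, KCNQ1OT1 62.0%, PEG3 66.5%, PLAGL1 75.1% and MEST 79.9%, and GRB10 (94.5%), PEG10 (100.7%) and SNRPN (126.7%) lay above the tiles. The differences between members on single days rest on 1 library each and were not tested.

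Loss relative to other intermediate DNA was tested as the slope of the log level on day, with the mean of the intermediate tiles on the same day as offset, so that a value below 0 is a faster loss. Two-sided limma-moderated quasi-Poisson tests called 2 of 8 regions, both faster, where 4.26% of all features and 5.6% of features at 20 to 80% were called faster, and 6.89% and 2.67% slower. GRB10 differed by -0.0622 ± 0.0161 (SE) per day (95% interval -0.0958 to -0.0285, limma-moderated adjusted p = 0.0174) and KCNQ1OT1 by -0.0469 ± 0.0135 (-0.0750 to -0.0187, adjusted p = 0.0304). These calls are fragile. Without the day 6 library neither passed (GRB10 -0.0398, limma-moderated adjusted p = 0.193, KCNQ1OT1 -0.0477, adjusted p = 0.122), and without day 7 neither passed (GRB10 -0.0523, adjusted p = 0.159, KCNQ1OT1 -0.0217, adjusted p = 0.414). With only CpGs of at least 5 reads in every library neither passed (GRB10 -0.0445, limma-moderated adjusted p = 0.131, KCNQ1OT1 -0.0131, adjusted p = 0.641). On the logit scale both differences turned to above 0, 0.0166 for GRB10 (limma-moderated adjusted p = 0.599) and 0.0386 for KCNQ1OT1 (adjusted p = 0.146).

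The other 6 regions did not pass, and their intervals bound the difference. PLAGL1 was at -0.0364 (95% interval -0.0724 to -0.000447, limma-moderated adjusted p = 0.184), L3MBTL1 at -0.0276 (-0.0673 to 0.0121, adjusted p = 0.381) and SNRPN at -0.0165 (-0.0572 to 0.0242, adjusted p = 0.640). PEG3 was at -0.00845 (-0.0386 to 0.0218, limma-moderated adjusted p = 0.762) and MEST at -0.00678 (-0.0365 to 0.0230, adjusted p = 0.811). GNAS A/B was at 0.152 (0.0438 to 0.261, limma-moderated adjusted p = 0.0647), with few methylated reads behind it. The median of the 8 members was -0.0221, and that of the 6 members at 20 to 80% was -0.0320. Features at 20 to 80% had a median of -6.54e-05, and the intermediate tiles with at least 20 listed CpGs one of -0.0260. Against these CpG-dense tiles, GRB10 was at -0.0431 (limma-moderated adjusted p = 0.0397), KCNQ1OT1 at -0.0274 (adjusted p = 0.119) and GNAS A/B at 0.175 (adjusted p = 0.0217), where 2.2% of all features were called faster and 19.8% slower. Against tiles at 40 to 60%, where 2.39% of features were called faster and 13.6% slower, only GNAS A/B passed, at 0.164 (limma-moderated adjusted p = 0.0402). These GNAS A/B values say little of loss, since 46 of its 48 CpGs held 3 methylated reads of 2441 on day 0 and the 2 others went from 51.9% to 5.08%. Against CpG-dense tiles at 80% or more, where 5.82% were called faster and 5.33% slower, GRB10 and KCNQ1OT1 passed.

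**Figure D3:**
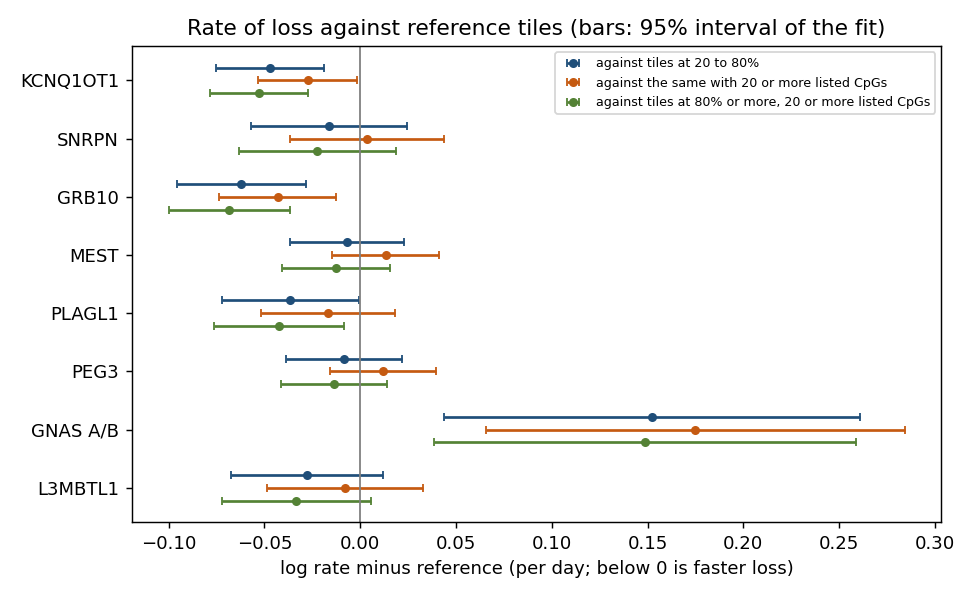
Difference in the log rate of loss per day between each of the 8 tested regions and 3 classes of tiles, with 95% intervals of the limma-moderated fit; values below 0 are faster loss. The intervals of GRB10 and KCNQ1OT1 lie below 0 against all 3 classes, those of GNAS A/B lie above 0, and those of SNRPN, MEST, PEG3 and L3MBTL1 include 0.

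Single CpGs were followed over the 5 deep libraries, at the 397 CpGs that reached 10 reads in all of them. In the 7 methylated regions other than PEG3, 282 of 302 CpGs (93.4%) were between 20 and 80% on day 0. In intermediate tiles with at least 20 listed CpGs, 49.5% of CpGs were, 18.2% being at 20% or less and 32.3% at 80% or more. These tiles could lie anywhere from 20 to 80% and had a mean of 59.1% on day 0. The 7 regions lay at 33.9 to 58.1% on that day. Tiles matched to the regions in level were not compared. Among the methylated regions, the CpGs of MEST had the smallest spread, and 85 of 86 were between 20 and 80%. Their standard deviation was 6.70 points across CpGs, where the number of reads alone would give 7.35. That second value treats each CpG's reads as independent. Neighbouring CpGs share molecules, so it is only a guide, here and for the regions below. L3MBTL1 (7.59 against 7.02) and PEG10 (8.04 against 8.43) were likewise near the spread that reads alone give. KCNQ1OT1 (14.1 against 7.40), PLAGL1 (14.6 against 7.88), PEG3 (11.4 against 6.73), GRB10 (11.1 against 7.07) and SNRPN (9.22 against 6.90) varied more from CpG to CpG. The intermediate CpG-dense tiles, not matched to the regions in level, had a median standard deviation of 19.0 points.

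**Figure D4:**
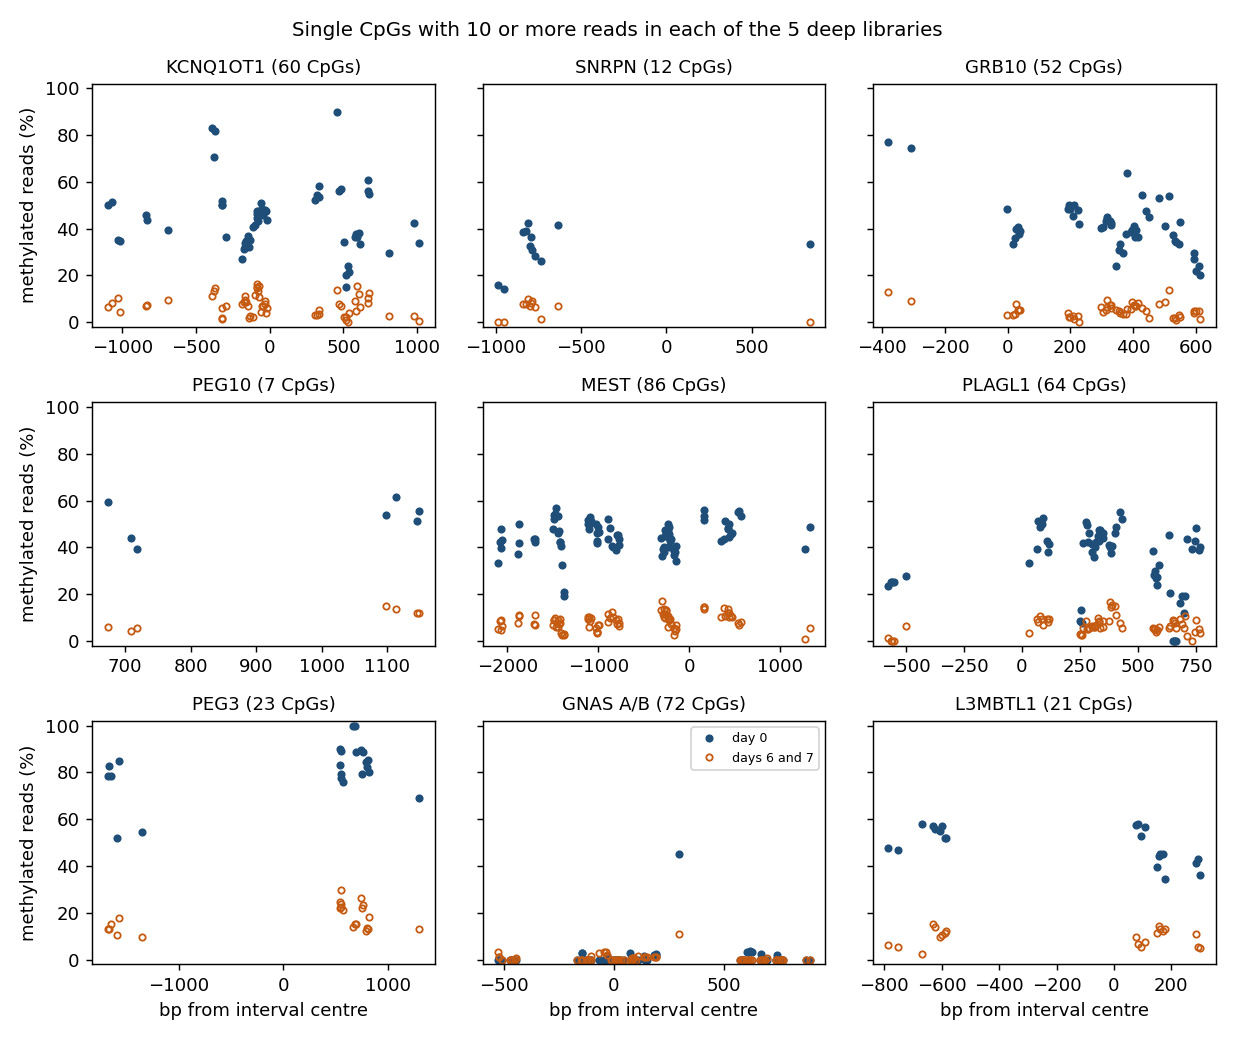
Methylated reads (%) at single CpGs against distance from the interval centre (bp), on day 0 (filled) and over days 6 and 7 pooled (open), for CpGs that reached 10 reads in all 5 deep libraries. Outside GNAS A/B, 321 of 325 CpGs are lower at the end. The 4 exceptions lie together in PLAGL1, where day 0 is at 0 methylated reads of 17 or 18.

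Loss reached nearly every CpG. Over days 6 and 7 pooled, 321 of the 325 CpGs in the 8 methylated regions were lower than on day 0, and 316 (97.2%) stood at 20% or less, against 86.3% of CpGs in the CpG-dense intermediate tiles. The tiles started higher, at a mean of 59.1% against a median of 44.5% for the regions, and the shares of the day 0 level kept on day 7 were close, at medians of 16.6% and 15.6%. The 9 others were all in PEG3, where 14 of 23 CpGs were at 20% or less. The highest single CpG of PEG3 was chr19:57351440-57351441, at 29.8% (14 of 47 reads) after 89.3% on day 0. In the other methylated regions the highest CpGs were at 9.79% in SNRPN, 13.9% in GRB10, 14.9% in PEG10, 15.2% in L3MBTL1, 16.3% in KCNQ1OT1, 16.5% in PLAGL1 and 17.1% in MEST. The 4 CpGs that were not lower lie within 13 bases in PLAGL1, from chr6:144329635 to chr6:144329648, and were named after their values were seen. They had 0 methylated reads of 17 or 18 each on day 0 and stood at 5.36 to 8.75% over days 6 and 7, and the counts of neighbouring CpGs are not independent. So few reads cannot separate 0 from a level of that size, so a gain was not shown.

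Along the intervals, CpGs were grouped into clusters wherever a gap of over 100 bp separated them. In MEST the 9 clusters ran from 39.3 to 53.8% on day 0, and in L3MBTL1 the 3 clusters from 39.4 to 52.7%. KCNQ1OT1 was less even, with 8 clusters from 27.3% (8 CpGs, chr11:2721916-2721983) to 59.9% (7 CpGs, chr11:2720715-2720811). These 2 clusters ended at 2.203% and 3.92% on day 7. In GRB10, the 2 CpGs at chr7:50849639-50849711 were at 76.0% (70.4 to 80.8) on day 0 and the clusters of 10 and 36 CpGs beside them at 41.5% and 39.3%. All 3 clusters of GRB10 ended between 4.35 and 8.99%. In PLAGL1 the cluster at chr6:144328406-144328483 stood at 25.5% and that at chr6:144329246-144329416 at 44.9% on day 0. The 5 clusters of PEG3 were at 69.4 to 100% on day 0 and, apart from 1 CpG with 11 reads, at 10.5 to 14.7% on day 7. That CpG went from 18 of 18 methylated reads on day 0 to 6 of 11 on day 7 (54.5%, 28.0 to 78.7).

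Outside the intervals, CpGs within 5 kb on the side with lower or higher coordinates were read where all libraries listed them. MEST had such CpGs on both sides, GRB10 on neither, and the other measured regions on a single side. Several of these flanks differed from the region beside them. Above the PLAGL1 interval, 3 CpGs were at 81.6% (73.5 to 87.6) on day 0 and 15.6% on day 7. Below the L3MBTL1 interval, 5 CpGs were at 87.2% (82.3 to 90.9) and then 16.3%. Both flanks were well above the region beside them at the start. MEST had 19 CpGs below it at 18.7% (16.2 to 21.5) and 5 above it at 71.7% (65.2 to 77.4), which were at 3.80% and 10.9% on day 7. The 4 CpGs below KCNQ1OT1 were at 4.88% and then 2.28%, and the 12 CpGs below PEG10 went from 6 of 663 methylated reads to 0 of 772, for which the Wilson upper bound is 0.495% and a limit of 3 reads is 0.389%. PEG3 and SNRPN were closer to their flanks: 6 CpGs above PEG3 stood at 61.4% (55.7 to 66.8) and then 10.4%, and 4 CpGs below SNRPN at 45.7% (40.3 to 51.2) and then 11.3%. The 100 CpGs above GNAS A/B were at 0.231% on day 0 and 0.201% on day 7.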

How the data were processed

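The members were chosen, and the lists and tests set, with earlier results of these data known. For each library the authors deposited 1 line per CpG with the methylated and total reads and, beside it, a score, which equals 1000 times the methylated share in every line and was not used. Coordinates are hg19 per the submitters' processing notes; for the aligner and the methylation caller, the name is not given in the sources used here. Labels give 1 library per day and no replicate, so p-values measure only scatter about a trend. All regions of the list are named; single CpGs are named as the highest or lowest on days 6 and 7, or as stated. Levels are pooled reads over CpGs listed in all 8 libraries, with Wilson 95% intervals (statsmodels 0.14.6). Libraries held 12359218 to 161534152 CpG read calls, fewest on days 3 to 5. Features were autosomal 1-kb tiles, those overlapping a region removed, plus the regions, each with at least 3 CpGs and 10 reads per library. Trend and rate were fitted in R 4.3.3 with dispersions moderated by limma 3.58.1 (trend in information, minimum of 1), F tests and Benjamini-Hochberg adjustment over all features, and both fits were tested on simulated data. Alternatives changed the CpGs, interval, coverage limit, tile size, minimums, moderation, link, reference and days.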

Additional observations from a re-analysis of the deposited data

How the results depend on the processing

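The count of 7 falling regions of 8 stayed within 1.5 times under all alternatives (6 of 7 to 8 of 9), leaving out single days included (7 to 8). All 8 were called falling without day 5, where GNAS A/B passed as well. That call says little of the GNAS A/B region, since 40 of its 43 methylated reads on day 0 came from 2 CpGs. Its other 46 CpGs held 3 methylated reads of 2441 on day 0 and 21 of 2150 on day 7. Tile size, the coverage limit, the minimums and moderation left the trend slopes of these regions as they were. Those settings could change only the standard errors and the adjustment. The 2 regions differing in rate became 1 with at least 5 reads per CpG in every library (GNAS A/B, slower, with GRB10 at -0.0445 and KCNQ1OT1 at -0.0131 both lost), 1 with the minimum of 1 CpG and 1 read (GRB10), 0 without moderation, 1 against tiles at 40 to 60% (GNAS A/B) and 4 with a quasi-binomial fit and logit offset. Leaving out single days gave 0 (without day 7) to 3 (without day 3, which adds PLAGL1, or day 5, which adds GNAS A/B), and 1 without day 6, which is GNAS A/B. With the logit offset KCNQ1OT1 (0.0386), SNRPN (0.0922), GRB10 (0.0166), MEST (0.0731), PLAGL1 (0.0616) and L3MBTL1 (0.0483) changed sign, and SNRPN, MEST and GNAS A/B were then called slower and PEG3 faster; the cause was not tested. With deep libraries alone, GRB10 (-0.0731, limma-moderated adjusted p = 0.0384) and PLAGL1 (-0.0431, adjusted p = 0.0320) were called, and KCNQ1OT1 was not (adjusted p = 0.0803). Of 84 levels under another weighting or choice of CpGs, 68 moved by less than their 95% interval. Among the 68 are all levels under the coverage limit, which left every level unchanged. The central part also left those of GRB10 unchanged, so these say nothing of stability. GNAS A/B on day 0 ranged from 0.115% to 2.31%. With the central part of each interval 3 regions differed in rate, GNAS A/B among them. PEG10 was fitted only with the deep libraries and with the minimum of 1 CpG and 1 read. No paired analysis was possible because there is 1 library per day. Depth limits days 3 to 5, and neighbouring CpGs share molecules, so intervals are too narrow.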
